A study of Mus musculus with 24 samples.

Results

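Retinoic acid synthesis, binding and receptor genes were measured in the hippocampus of neonatal mice given morphine under stress. The genes were Aldh1a1, Aldh1a2, Aldh1a3, Crabp1, Crabp2, Rbp4, Stra6, Rara and Rarb, and every non-control probe that the array's annotation gives to these names was taken, which came to 12 of 55681 probes and 9 of 36163 gene names. Rara had 2 probes, Rarb had 3, and each other gene had 1. Levels are log2 values of probe brightness after background correction and normalization between arrays, so a step of 1 is a doubling of signal. Levels of different probes were not compared with each other.

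Retinoic acid is made from vitamin A in successive oxidation steps, the last of which is carried out by the retinaldehyde dehydrogenases Aldh1a1, Aldh1a2 and Aldh1a3. Its precursor retinol travels in plasma bound to Rbp4 and enters some cells through the membrane receptor Stra6, while Crabp1 and Crabp2 carry retinoic acid inside cells and the CYP26 enzymes degrade it. Rara and Rarb are nuclear receptors that pair with retinoid X receptors on DNA and switch target genes on when they bind retinoic acid. In the brain the meninges, which lie against the hippocampus, are a known site of Aldh1a2 expression, and retinoic acid takes part in hippocampal plasticity.

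All pups were C57BL/6 mice labelled male and were killed on postnatal day 9. The hippocampi of both sides of a pup were pooled in 1 tube. Untreated controls (Con, 0 mg/kg) were left with the dam with little handling. From postnatal day 5, the other groups received morphine at 2 mg/kg (MS2) or 5 mg/kg (MS5) together with daily separation from the dam, isolation and brief nitrogen and oxygen exposures that imitate apnea. Each group had 5 arrays of 5 animals. Any difference of MS2 or MS5 from Con therefore spans morphine and stress together, which cannot be told apart, whereas MS5 and MS2 differ in dose.

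A few arrays stood apart from the rest. On MS5 replicate 9 the probe for Xist, a transcript of the inactive X chromosome, read 11.34 against 5.89 to 6.08 on the other 14 arrays, although all pups were labelled male. MS2 replicate 5 was the dimmest array, with a median signal of 58.2 against 121 to 154 on the others. MS2 replicate 4 had a median correlation with the other arrays of 0.9898, against at least 0.9955, and its mean over a list of 13 hippocampal neuron genes was 1.77 below the average of all arrays, while on the other arrays that mean lay between -0.21 and 0.29. The same array was 1.81 above average over 16 genes of the hypothalamus and thalamus. The arrays lay on 2 slides of 8 and 7, each of which held all 3 groups. No spot was saturated on any array.

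The probes of the pair of genes that varied most between animals are shown first, since the agreement of separate probes bears on how their values are read. The lines give the first 30 of the 60 bases of each probe in lower case. Rarb probes 1 and 2 lie close together at chr14:17263367-17263426 and chr14:17264648-17264707 on the minus strand of mm9. Rarb probe 3 lies upstream at chr14:17651424-17651483 and was designed to a transcript of the beta-1 isoform. The Crabp1 probe lies at chr9:54616192-54616251 on the plus strand. Whether a probe falls in coding or untranslated sequence was not determined.
Rarb probe 1: gctttctatgttcatatactgtttaccttt
Rarb probe 2: aattctgaaggacatgaacccttgacccca
Rarb probe 3: tattgagcctgtttgcacacactcaccacc
Crabp1: gtttacccacgtgggagaatgagaacaaga

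Rarb is also a classic target of its own ligand, so RefSeq promoter windows of 300 bases on GRCm38.p6, from 250 bases before to 50 after a gene's start, were searched on both strands for retinoic acid response elements. A match was a direct repeat of the receptor element, with a spacer of 1, 2 or 5 bases (DR1, DR2 and DR5). The element was taken as AGGTCA in its consensus form, as the variant AGTTCA known from this gene, or with a leading G as the variant GGGTCA or again as the variant GGTTCA, in any combination. Windows were at hand for 7 of the 9 genes, 15 in all, and 1 of them held a match. That was a DR5 in the Rarb window, from 53 to 37 bases before the start. Since the search included a form of the element known from this gene, a match in its window was built in and is no independent find. Of all 32851 windows, 0.588% held any of the repeats and 0.0974% held a DR5. The line gives chr14:16575477-16575589, read on the minus strand up to the last base before the start, with the repeat and its spacer in capitals.
Rarb promoter: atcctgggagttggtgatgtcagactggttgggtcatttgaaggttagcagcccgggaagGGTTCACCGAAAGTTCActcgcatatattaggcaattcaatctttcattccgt

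All 12 probes were well above background on all 15 arrays. With the study's threshold of more than 1.5-fold at an unadjusted limma p under 0.05, 0 of the 12 were called in each of the 3 contrasts. The share of all probes called was 0.0233% in MS2 against Con, 0.228% in MS5 against Con and 0.129% in MS5 against MS2. At an unadjusted p under 0.05 alone, 2 of 12 passed in MS2 against Con (4.17% of all probes), 2 of 12 in MS5 against Con (3.9% of all probes) and 0 of 12 in MS5 against MS2 (3.97% of all probes). After Benjamini-Hochberg adjustment over all probes the smallest limma p of any probe on the array was 0.97, 0.635 and 1 in these contrasts, so no gene passed. The groups overlapped at every one of the 12 probes in every contrast, where 0.702%, 0.828% and 0.621% of all probes did not overlap. The median log2 difference over the 12 probes was -0.04, 0.02 and -0.03, against 0.00 over all probes in each contrast.

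**Figure D1:**
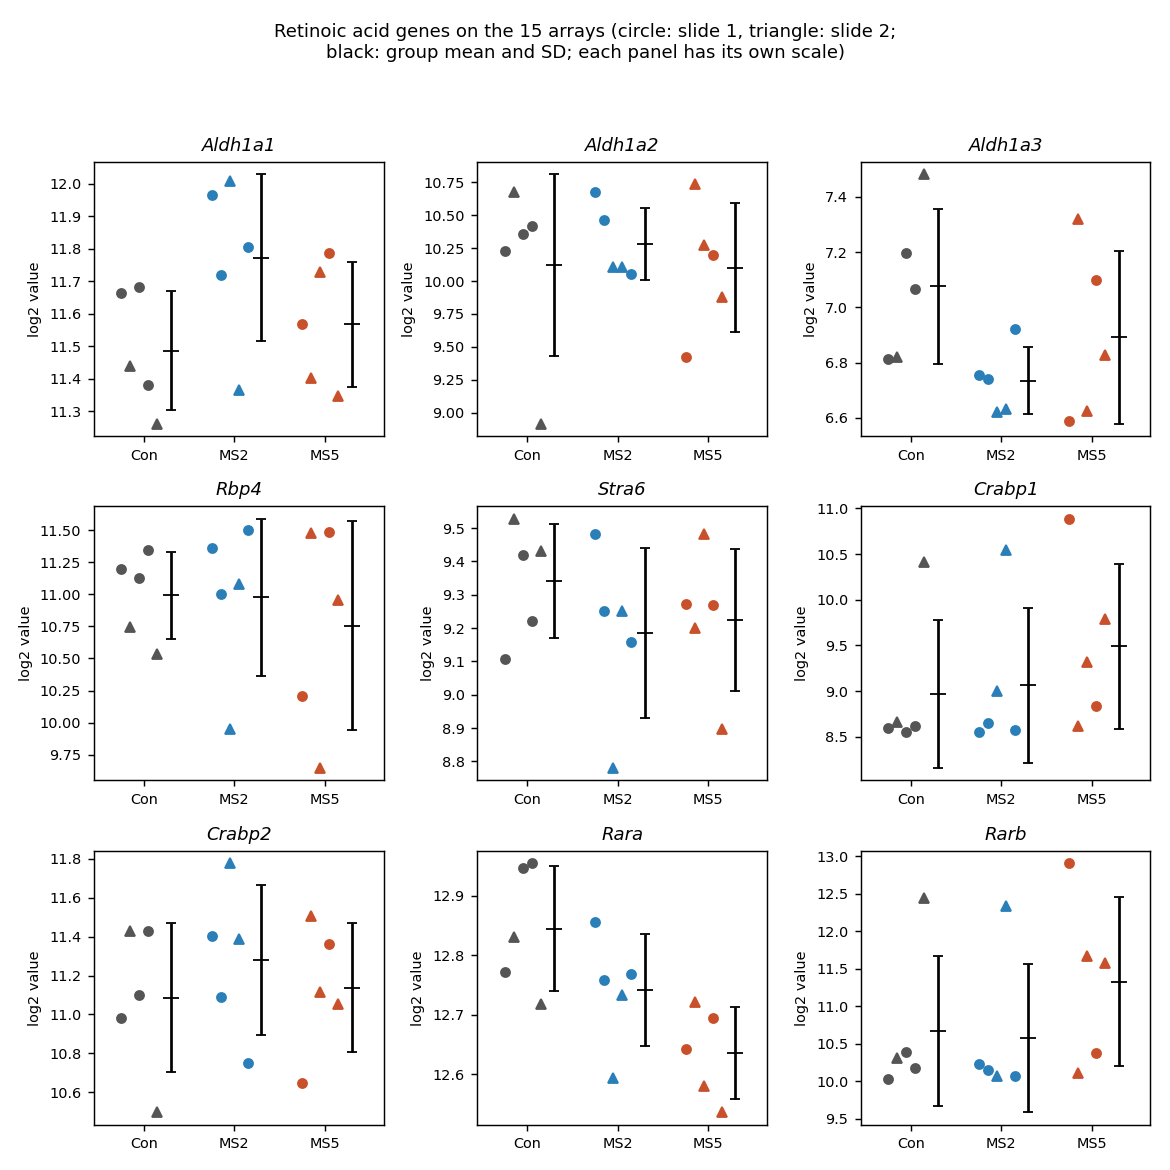
Log2 value of each of the 9 genes (the probe with the highest mean where there are several) on the 15 arrays, by group, with circles for slide 1, triangles for slide 2 and black bars for the group mean and SD. In the Rarb and Crabp1 panels a single Con array and a single MS2 array sit well above the rest of their groups, while the MS5 arrays spread over the whole range.

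Aldh1a1, the first of the 3 retinaldehyde dehydrogenases, read 11.66, 11.44, 11.68, 11.38 and 11.26 in Con (replicates 15 to 19 in order). In MS2 (replicates 1, 3, 4, 5 and 7) it read 11.96, 11.72, 12.01, 11.37 and 11.81, and in MS5 (replicates 8, 9, 12, 13 and 14) 11.57, 11.40, 11.73, 11.79 and 11.35. All MS2 arrays but replicate 5, the dimmest, were above every Con array. The MS2 mean was 0.29 above Con on the log2 scale (SE 0.12, unadjusted limma p = 0.0369, adjusted p = 0.97), and the exact two-sided permutation test over the 5 and 5 arrays gave p = 0.0794. MS5 differed from Con by 0.08, with a 95% interval from -0.19 to 0.35. The genes most like Aldh1a1 over the 15 arrays were Tmem126b (Pearson r = 0.97), Nefl (r = 0.9) and Nt5m (r = 0.899).

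Aldh1a2, the dehydrogenase found in the meninges, varied far more between animals. It read 10.23, 10.68, 10.36, 10.42 and 8.92 in Con, 10.67, 10.46, 10.11, 10.11 and 10.05 in MS2, and 9.42, 10.74, 10.27, 10.20 and 9.88 in MS5. The lowest array was Con 19 and the next lowest MS5 8, so the low values were not confined to a group. The MS5 mean differed from Con by -0.02 (95% interval -0.65 to 0.62) and from MS2 by -0.18 (-0.81 to 0.45). Its range over the 15 arrays, 1.82, was wider than that of 97.7% of the 36279 probes detected on all arrays.

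The 3 genes whose probes followed Aldh1a2 most closely over the 15 arrays, among 25736 gene names detected on all of them, were Fmod (Pearson r = 0.971), Slc6a13 (r = 0.962) and Slc22a6 (r = 0.958). Fmod encodes the small proteoglycan fibromodulin, Slc6a13 a GABA and taurine transporter and Slc22a6 an organic anion transporter. These arrays shared slides and normalization, and the r values are descriptions. All 3 genes are on a list of 23 meningeal genes, of which 22 were well above background on every array. The mean level of that list, each gene centred on its own average, followed Aldh1a2 with r = 0.93 (0.954 after group means were removed). The list holds the 3 genes picked above for their likeness to Aldh1a2, so part of these r values is built in. Its mean level was lowest on Con 19 (-0.59) and MS5 8 (-0.52). The summed level of the list ranged from 15.79 to 16.79 in Con, 16.17 to 16.74 in MS2 and 15.81 to 16.46 in MS5. In MS5 against Con, 1 of the 23 genes passed the study's threshold (Slc13a4, a sulfate transporter, -0.65), against 0.228% of all probes. In MS5, 21 of the 23 genes were lower than in Con (median -0.15) and 22 of 23 lower than in MS2 (median -0.19). Its part in the Aldh1a2 values was not tested. In a bulk sample, fewer cells of a type and less RNA per cell cannot be told apart.

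The probe of Aldh1a3, the third enzyme, read low on the scale, where the offset of 50 added during background correction compresses differences. Con arrays read 6.81, 6.82, 7.20, 7.07 and 7.48, MS2 arrays 6.76, 6.74, 6.62, 6.63 and 6.92, and MS5 arrays 6.59, 7.32, 6.63, 7.10 and 6.83. Of the MS2 arrays, only replicate 7 reached the range of Con. MS2 was below Con by a log2 difference of -0.34 (SE 0.15, unadjusted limma p = 0.0356, adjusted p = 0.97, exact two-sided permutation p = 0.0397). With the offset set to 0 the difference was -0.57, under 1.5-fold. With processed signals aligned at the 75th percentile of each array, which changes both the background correction and the normalization, it was -0.62 with an unadjusted limma p of 0.0297, past the study's threshold. MS5 differed from Con by -0.18 (95% interval -0.50 to 0.13). The genes most like Aldh1a3 were Ctbs (r = 0.906), Wdr20b (r = 0.894) and 2810008M24Rik (r = 0.892).

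**Figure D2:**
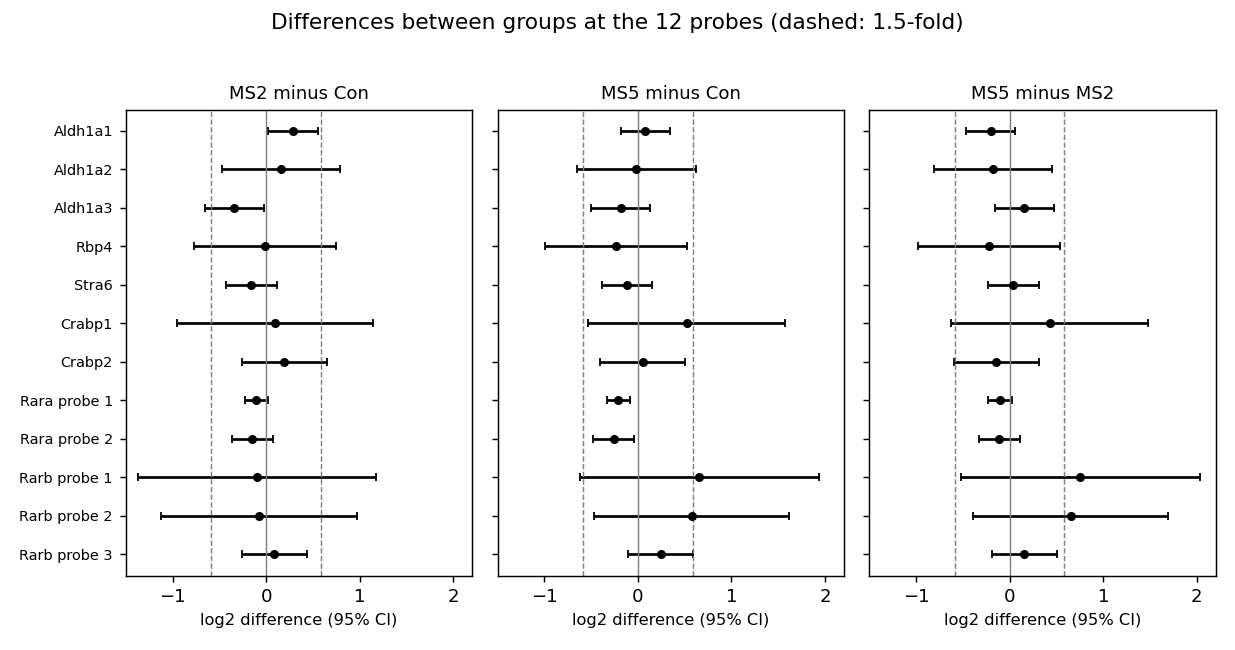
Log2 difference between group means at each of the 12 probes, with 95% confidence intervals from the limma fit over 15 arrays; dashed lines mark 1.5-fold. Intervals are narrow for Rara, where MS5 lay below Con at both probes, and wide for Crabp1 and for Rarb probes 1 and 2.

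Rbp4, the plasma carrier of retinol, read 11.20, 10.75, 11.12, 11.34 and 10.54 in Con, 11.36, 11.00, 9.95, 11.08 and 11.50 in MS2, and 10.21, 11.48, 9.65, 11.49 and 10.96 in MS5. Low values were found on MS5 12, MS2 4 and MS5 8, and the groups overlapped widely. MS5 differed from Con by -0.23 (95% interval -0.99 to 0.52) and MS2 from Con by -0.01 (-0.77 to 0.75). The probe most like it was that for Amdhd1, an enzyme of histidine breakdown (r = 0.965). Next came 2310042E22Rik (r = 0.962) and C230085N15Rik (r = 0.962). Rbp4 had r = -0.77 with the mean of the 16 hypothalamic and thalamic genes, and that mean was highest on MS2 4 (1.81) and MS5 8 (0.82).

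Stra6, the membrane receptor for Rbp4, varied less, from 8.78 to 9.53 over the 15 arrays. Con arrays lay between 9.11 and 9.53, MS2 arrays between 8.78 and 9.48, and MS5 arrays between 8.90 and 9.48. The 2 lowest arrays were MS2 4 and MS5 14. Differences were -0.16 for MS2 against Con (95% interval -0.43 to 0.11) and -0.12 for MS5 against Con (-0.39 to 0.15). The genes most like Stra6 over the 15 arrays were Nme5 (r = 0.927), Aph1b (r = 0.926) and Kif9 (r = 0.902). These r values were higher than those of Stra6 with any list. Stra6 had r = 0.74 with the mean of 35 other retinoid genes, 0.601 with a list of 20 choroid plexus genes and 0.594 with the 13 hippocampal neuron genes. The choroid plexus list was lower in MS5 than in Con at all 20 genes, with a median of -1.25. Of these, 17 were past the study's threshold, against 0.228% of all probes. The mean of the choroid plexus list was lowest on MS5 14 (-2.34) and MS5 9 (-1.56). Stra6 read 9.20 on MS5 9, and on MS2 4, its lowest array, the choroid plexus mean was 0.06 and the hippocampal neuron mean -1.77. The part of these tissues in the Stra6 values was not tested.

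Crabp1, which binds retinoic acid in the cytoplasm, read 8.60, 8.66, 8.55, 8.62 and 10.41 in Con, 8.55, 8.65, 9.00, 10.54 and 8.57 in MS2, and 10.89, 8.62, 9.31, 8.83 and 9.79 in MS5. Most arrays lay within a narrow band near 8.6, while Con 19, MS2 5, MS5 8, MS5 12 and MS5 14 lay above it. MS5 exceeded Con by 0.52 (SE 0.49, 95% interval -0.53 to 1.57, exact two-sided permutation p = 0.302 over 5 and 5 arrays) and MS2 by 0.43 (-0.62 to 1.47). Neither difference was larger than the spread between animals. The within-slide differences of MS5 from Con ran in opposite directions, 1.27 on slide 1 (3 Con and 2 MS5 arrays) and -0.29 on slide 2 (2 and 3 arrays).

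Crabp2, which delivers retinoic acid to nuclear receptors, read 10.98, 11.43, 11.10, 11.43 and 10.50 in Con, 11.40, 11.09, 11.78, 11.39 and 10.75 in MS2, and 10.65, 11.51, 11.12, 11.36 and 11.05 in MS5. Its highest array was MS2 4 and its lowest Con 19. Group means differed by 0.19 for MS2 against Con (95% interval -0.26 to 0.65) and 0.05 for MS5 against Con (-0.40 to 0.51). The closest probe over the 15 arrays was that of a long noncoding RNA annotated just downstream on the same strand (r = 0.986). Next came H19 (r = 0.894) and Bmp7 (r = 0.876). Crabp2 and Aldh1a2 had r = 0.726, and its r with the meningeal list was 0.615.

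Rara, the receptor expressed in most tissues, gave the smallest p-values of the 9 genes. Probe 1 read 12.77, 12.83, 12.95, 12.95 and 12.72 in Con, 12.86, 12.76, 12.59, 12.73 and 12.77 in MS2, and 12.64, 12.72, 12.58, 12.69 and 12.54 in MS5. The highest MS5 array (replicate 9) lay just above the lowest Con array (replicate 19), and the other MS5 arrays lay below all Con arrays. The MS5 mean was below Con by a log2 difference of -0.21 (SE 0.06, 95% interval -0.34 to -0.08), a 0.865-fold level, with an unadjusted limma p of 0.00311, an adjusted p of 1 and an exact two-sided permutation p of 0.0159. The smallest p that 5 against 5 arrays allow is 0.00794.

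Rara probe 2 read 8.77, 8.65, 8.78, 9.05 and 8.87 in Con, 8.71, 8.63, 8.40, 9.04 and 8.59 in MS2, and 8.42, 8.53, 8.61, 8.73 and 8.52 in MS5. MS5 again lay lower as a group, and only replicate 13 reached into the range of Con. The difference was -0.26 (SE 0.10, unadjusted limma p = 0.0232, adjusted p = 1, exact two-sided permutation p = 0.0159). The probes lie in the same transcript, at chr11:98836197-98836256 and chr11:98835350-98835409, and had r = 0.604 over the 15 arrays. MS2 fell between the other groups at both probes, at -0.10 (95% interval -0.23 to 0.02) and -0.15 (-0.37 to 0.07) against Con. The difference of MS5 from MS2 was -0.11 at each probe and did not pass at an unadjusted p under 0.05.

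At probe 1 the difference of MS5 from Con kept its negative sign under all 21 alternative settings, from -0.24 to -0.16. It was -0.22 within slide 1 and -0.16 within slide 2, and -0.23 without the 3 arrays that stood apart. The size stayed below 1.5-fold in each. The genes most like Rara over the 15 arrays were Tead1, a transcription factor of the Hippo pathway (r = 0.901), Mettl5, an RNA methyltransferase (r = 0.888), and 9130206I24Rik (r = 0.885). Rara had r = -0.702 with the hypothalamic and thalamic list, of whose 16 genes 13 were well above background on every array. Of the 16, 12 were higher and 4 lower in MS5 than in Con, with a median of 0.21. In MS2 against Con 14 were higher and 2 lower (median 0.30), and in MS5 against MS2 7 were higher and 9 lower (median -0.02). Past the study's threshold in MS5 against Con were 3 of the 16, against 0.228% of all probes. These were the peptide hormone genes Avp (2.53), Oxt (1.79) and Trh (1.89). Rara also had r = 0.614 with the meningeal list, 0.533 with the choroid plexus list and -0.537 with a striatal list described below. After group means were removed, these were 0.659, 0.198 and -0.489. The part of these tissues in the Rara values was not tested.

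Rarb, the receptor known for its expression in the striatum, varied more than any other of the 9 genes. Probe 1 read 10.03, 10.31, 10.39, 10.18 and 12.44 in Con, 10.23, 10.15, 10.07, 12.33 and 10.07 in MS2, and 12.91, 10.10, 11.66, 10.38 and 11.57 in MS5. High values were thus found on 1 Con, 1 MS2 and 3 MS5 arrays, and the 10 other arrays lay between 10.03 and 10.39. The range of 2.87 was wider than that of 99.4% of probes detected on all arrays.

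Probe 2 gave 8.08, 8.07, 8.11, 7.88 and 9.66 in Con, 8.05, 8.04, 7.92, 9.52 and 7.89 in MS2, and 10.50, 7.78, 9.20, 8.09 and 9.11 in MS5. Probe 3, for the beta-1 isoform, gave 6.66, 6.68, 6.72, 6.56 and 7.04 in Con, 6.74, 6.64, 6.60, 7.29 and 6.82 in MS2, and 7.45, 6.58, 7.15, 6.67 and 7.01 in MS5. At all 3 probes the same 5 arrays were the highest, with r over the 15 arrays of 0.987 between probes 1 and 2, 0.942 between 1 and 3, and 0.952 between 2 and 3.

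MS5 exceeded Con at Rarb probe 1 by 0.66 (SE 0.60, 95% interval -0.62 to 1.93, unadjusted limma p = 0.289) and MS2 by 0.75 (-0.52 to 2.03), with exact two-sided permutation p-values of 0.349 and 0.31. These differences were within the spread of the animals, and the intervals also take in changes well above 1.5-fold. MS2 differed from Con by -0.10 (-1.37 to 1.18). The slides disagreed, with MS5 above Con by 1.44 on slide 1, where MS5 8 was 1 of 2 MS5 arrays, and a difference of -0.26 on slide 2, which held the high Con array.

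The 5 arrays with high Rarb were the 5 with high Crabp1. In order of Rarb they were MS5 8, Con 19, MS2 5, MS5 12 and MS5 14, with at least 11.57 for Rarb and 9.31 for Crabp1, against at most 10.39 and 9.00 on the other 10. MS5 8 lay on slide 1, and Con 19, MS2 5, MS5 12 and MS5 14 lay on slide 2. Slide 2 also held Con 16, MS2 4 and MS5 9, which were not among the 5. The part of the slide in these values was not tested. The r between the genes was 0.968 over 15 arrays, and 0.971 after group means were removed. Over the 10 other arrays it was -0.063, so the relation rests on those 5 arrays.

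The genes most like Crabp1 were Adcy5 (r = 0.991), Rgs9 (r = 0.989) and 4833415N18Rik (r = 0.983). Those most like Rarb were D830015G02Rik (r = 0.988), Adora2a (r = 0.984) and CJ070999 (r = 0.983). Adcy5, an adenylyl cyclase, Rgs9, a regulator of G-protein signalling, and Adora2a, the adenosine A2a receptor, are textbook genes of striatal neurons. Adora2a read 7.50, 7.60, 7.67, 7.76 and 10.21 in Con, 7.61, 7.63, 7.35, 10.75 and 7.71 in MS2, and 10.58, 7.64, 9.69, 8.11 and 9.45 in MS5, highest on the same 5 arrays.

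A list of 20 striatal neuron genes was then drawn up, after these values had been seen, and 19 of them were on the array, 18 well above background on every array. Isl1, a transcription factor, was above background on 14. The summed level of the list ranged from 15.18 to 17.28 in Con, 15.15 to 17.37 in MS2 and 15.11 to 17.74 in MS5, so the groups overlapped. With each gene centred on its own mean, the list stood at 1.66 on MS5 8, 1.31 on MS2 5, 1.29 on Con 19, 0.65 on MS5 12 and 0.62 on MS5 14, and between -0.72 and -0.10 on the other 10. Its r with Rarb was 0.982 and with Crabp1 0.98 over 15 arrays, against 0.223 and 0.808 over the 10 others. The list holds Adora2a, Rgs9 and Adcy5, which were picked above for their likeness to these genes, so part of these r values is built in. Of the 19 genes 18 were higher in MS5 than in Con, with a median of 0.48 against 0.00 over all probes, and 0 passed the study's threshold (0.228% of all probes). The part of striatal tissue in the Rarb and Crabp1 values was not tested.

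**Figure D3:**
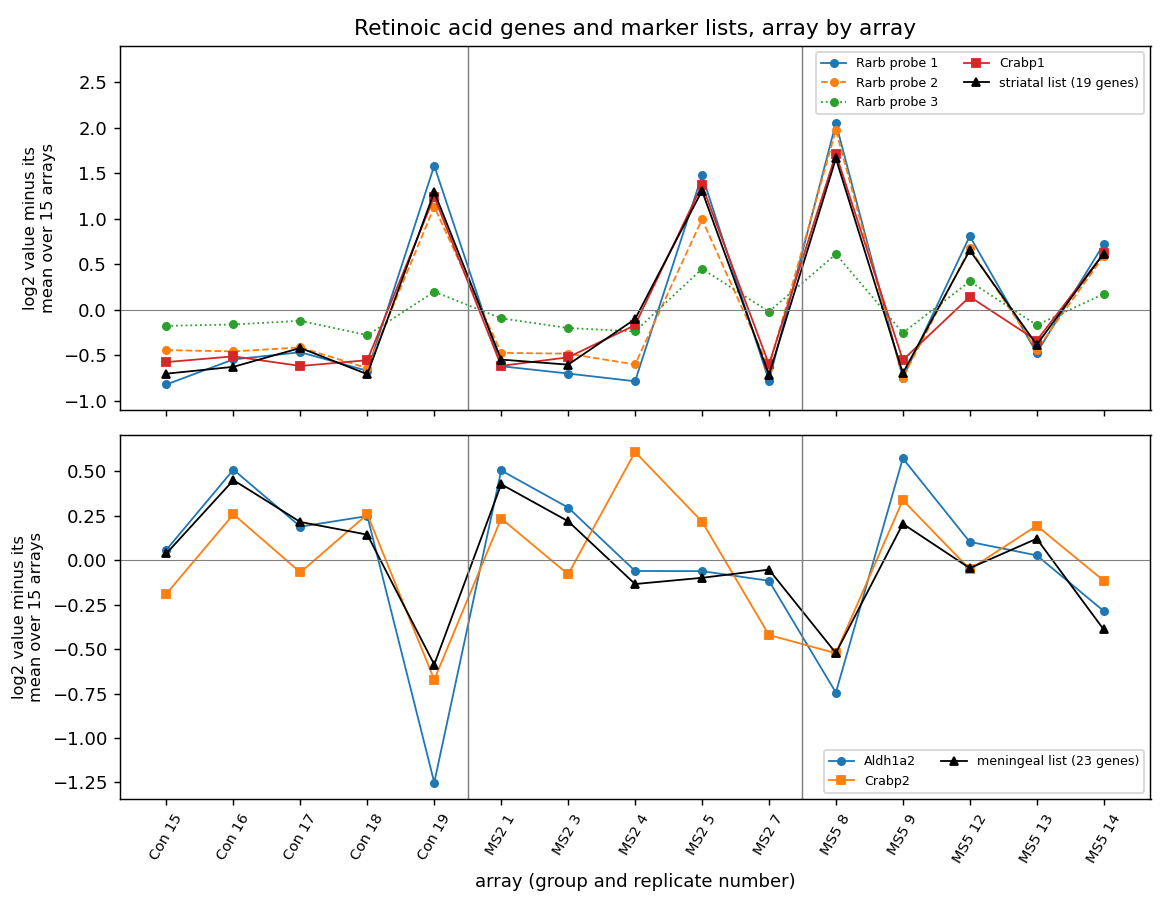
Log2 values minus their mean over 15 arrays, array by array, with vertical lines between Con, MS2 and MS5. The upper panel shows the 3 Rarb probes, Crabp1 and the striatal list, all highest on Con 19, MS2 5, MS5 8, MS5 12 and MS5 14; the lower panel shows Aldh1a2, Crabp2 and the meningeal list, with Aldh1a2 and the list lowest on Con 19 and MS5 8.

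Aldh1a2 ran against the Rarb pattern, with r = -0.743 to Rarb and -0.779 to Crabp1 over the 15 arrays, and with Spearman's rho of -0.45 and -0.60. Con 19 and MS5 8 were the 2 lowest arrays for Aldh1a2 and were among the 3 highest for Rarb. The next lowest array for Aldh1a2 was MS5 14 at 9.88, which was also high for Rarb. MS2 5, another array with high Rarb, was near the middle of the Aldh1a2 values at 10.11, as was MS5 12 at 10.27. After group means were removed the r values were -0.76 and -0.803.

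Other genes of retinoid metabolism and signalling were examined as a list of 36, of which 35 were on the array and 26 were well above background on all arrays. None passed the study's threshold in MS2 against Con or MS5 against Con, and 1 did in MS5 against MS2. Of all probes, 0.0233%, 0.228% and 0.129% passed in these contrasts. At an unadjusted limma p under 0.05 alone, 2, 2 and 1 passed, against 4.17%, 3.9% and 3.97% of all probes. The median log2 difference of the list was -0.03, -0.02 and -0.01, against 0.00 over all probes.

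The gene that passed was Adh1, an alcohol dehydrogenase that can oxidize retinol. It read 8.45, 8.20, 8.24, 8.24 and 7.73 in Con, 8.43, 8.32, 8.32, 8.34 and 8.28 in MS2, and 7.52, 7.89, 7.94, 7.91 and 7.44 in MS5. Every MS5 array lay below every MS2 array, and Con 19 lay among the MS5 values. Of all probes, 0.621% did not overlap between MS5 and MS2. MS5 was below MS2 by a log2 difference of -0.60 (unadjusted limma p = 0.000225, adjusted p = 1, exact two-sided permutation p = 0.00794) and differed from Con by -0.43 (unadjusted limma p = 0.00325, exact permutation p = 0.0317). The difference from MS2 lies near the threshold and ranged from -0.76 to -0.52 over 20 alternative settings, falling just under 1.5-fold with the slide as a block (-0.58), within slide 2 (-0.58) and without MS2 replicate 1 (-0.58), MS5 replicate 8 (-0.54) or MS5 replicate 14 (-0.52). Over the 15 arrays its r was 0.673 with the meningeal list, -0.602 with the striatal list, 0.582 with a list of 7 blood genes and 0.562 with the choroid plexus list. All 7 blood genes were lower in MS5 than in MS2, with 0 past the threshold (0.129% of all probes) and a median of -0.27. The part of these tissues in the Adh1 values was not tested.

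**Figure D4:**
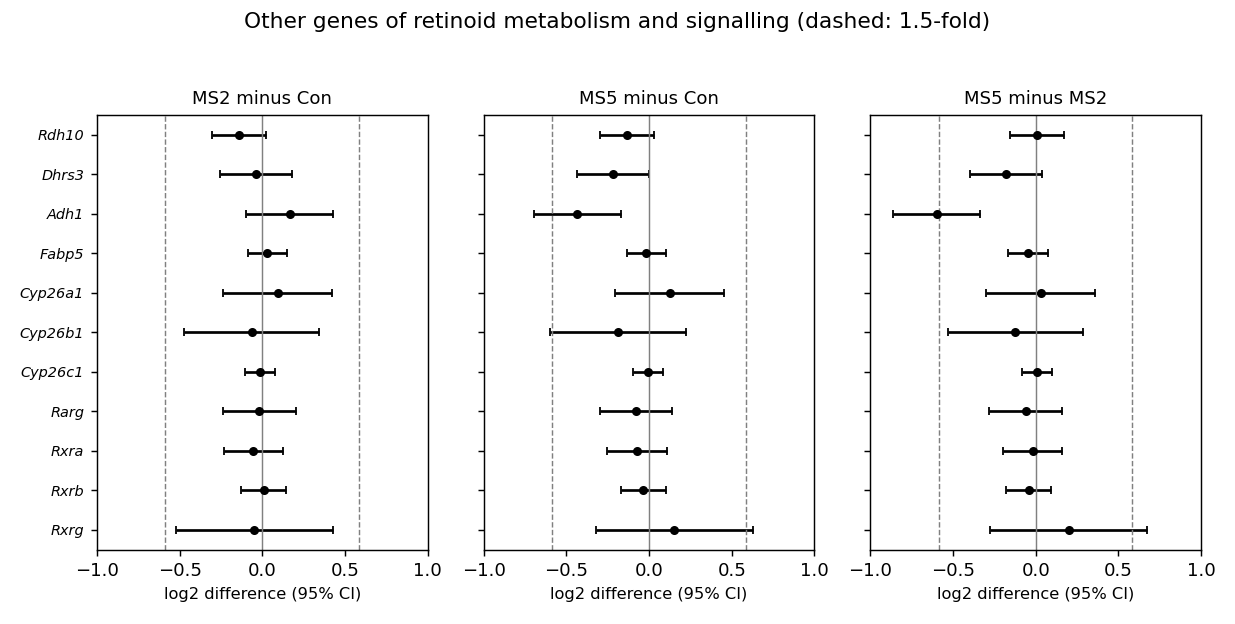
Log2 difference between group means, with 95% confidence intervals from the limma fit over 15 arrays, for other genes of retinoid metabolism, binding and signalling; dashed lines mark 1.5-fold. Adh1 in MS5 against MS2 (-0.60) is the point that reaches the dashed line.

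Rdh10, which oxidizes retinol to retinaldehyde in the embryo, differed by -0.14 in MS2 and -0.14 in MS5 from Con. Dhrs3, which reduces retinaldehyde back to retinol, differed by -0.22 in MS5 against Con (95% interval -0.44 to -0.0026, unadjusted limma p = 0.0477, adjusted p = 1, exact two-sided permutation p = 0.143). It was lowest on MS5 9 and MS5 14, both at 11.97, the arrays with the lowest choroid plexus levels.

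Ttr, the plasma protein that carries Rbp4 and a defining choroid plexus gene, averaged 17.95 ± 0.20 in Con, 17.87 ± 0.15 in MS2 and 16.41 ± 2.16 in MS5 (SD, n = 5 each), a difference of -1.54 of MS5 from Con (95% interval -3.08 to 0.01, unadjusted limma p = 0.0509, exact two-sided permutation p = 0.0873). Fabp5, which can carry retinoic acid to other nuclear receptors, differed from Con by 0.03 in MS2 and -0.02 in MS5.

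Of the degrading enzymes, Cyp26b1 differed from Con by -0.06 in MS2 and -0.19 in MS5 (95% interval -0.60 to 0.22). It read between 12.64 and 12.85 in Con, 12.08 and 12.91 in MS2, and 12.02 and 13.22 in MS5. The low MS2 value was on MS2 4, and the other MS2 arrays lay between 12.71 and 12.91. Cyp26a1, a sensitive target of retinoic acid, was above background on 14 arrays and differed by 0.12 in MS5 against Con (-0.20 to 0.45). Cyp26c1 was not well above background on any array.

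Rarg, the remaining retinoic acid receptor, differed by -0.08 in MS5 against Con (95% interval -0.30 to 0.14). Of the retinoid X receptors, Rxra differed by -0.07 (-0.25 to 0.11), Rxrb by -0.03 (-0.17 to 0.10) and Rxrg by 0.15 (-0.32 to 0.63). Of these 4 intervals, that of Rxrg reaches 1.5-fold. Rxrg read 12.95 on Con 19, 13.02 on MS2 5, 13.10 on MS5 8, 12.64 on MS5 12 and 12.55 on MS5 14. These are the 5 arrays with high Rarb and Crabp1, and the other 10 read at most 12.43 for Rxrg.

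A further list held 30 genes known to respond to retinoic acid, of which 18 were well above background on all arrays and 6 are also on the list of 36. In MS2 against Con, MS5 against Con and MS5 against MS2, 0 genes passed the study's threshold, against 0.0233%, 0.228% and 0.129% of all probes. At an unadjusted limma p under 0.05, 0, 2 and 1 passed, against 4.17%, 3.9% and 3.97% of all probes. Positive differences were found for 17, 16 and 16 of the 30. The 2 genes in MS5 against Con were Dhrs3 and the transcription factor Sox9 (-0.20, unadjusted limma p = 0.0225, exact two-sided permutation p = 0.0238). The 1 in MS5 against MS2 was the homeobox gene Hoxa4 (0.11, unadjusted limma p = 0.0273, exact two-sided permutation p = 0.0159), with 14 of 15 arrays above background. These were named after their values were seen.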

How the data were processed

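RNA of 15 hippocampal samples was hybridised to 1-colour Agilent arrays, 5 each of Con, MS2 and MS5. The deposited scanner files give spot intensity from Feature Extraction 10.7.1.1 per the file headers, with probe positions on mm9. The deposited table gives log2 values that the authors made from it with normexp background correction (offset 50) and quantile normalization in Agi4x44PreProcess. Rebuilding it from the intensity columns matched the deposited log2 values within 5e-09. Array number and signal over background limit the precision.

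From the log2 table, 1 limma fit (3.58.1, R 4.3.3) of the 3 groups was run on 55681 non-control probes, with Benjamini-Hochberg adjustment over all of them. A gene was called by the study's own rule, a fold above 1.5 and p under 0.05 before adjustment. The fit was tested on simulated data. Exact permutation tests over 252 assignments were run for single genes. The probe with the highest mean over 15 arrays stands for a gene in lists and alternatives. A list's summed level is the log2 of the sum of its genes' linear values, and its mean level averages values centred per gene.

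Named genes were all probes of the 9 genes, those of the retinoid lists past the threshold, 12 preset genes of metabolism and signalling (1 of which is not reported here), and for each of the 9 the 3 other genes with the highest Pearson r among probes well above background on all arrays. Promoter windows came from RefSeq tables on GRCm38.p6. The 9 genes and the lists were chosen with earlier results of these data known. Alternatives were values rebuilt with spots averaged, no offset, processed signal at the 75th percentile, a detection filter, slide as a block, each slide alone, array weights, 2-group fits, leaving out each array, and, chosen after seeing the data, leaving out MS5 9, MS2 4 and MS2 5 together, as well as the same settings for Adh1. The miR arrays of the series were not used here. Each array held a different animal.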

Additional observations from a re-analysis of the deposited data

Results flagged for a closer look

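Of 36 checks for a single array far from the rest of its group of 5 (12 probes in 3 groups), 7 found one, where chance gives about 1 in 20. Con replicate 19 read 8.92 for Aldh1a2 against 10.23 for the nearest Con array, 10.41 for Crabp1 against 8.66, 12.44 for Rarb probe 1 against 10.39 and 9.66 for Rarb probe 2 against 8.11. MS2 replicate 5 read 10.54 for Crabp1 against 9.00 for the nearest MS2 array, 12.33 for Rarb probe 1 against 10.23 and 9.52 for Rarb probe 2 against 8.05. The Crabp1 and Rarb probes share these arrays, so the checks are not independent.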

How the results depend on the processing

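The count of probes of the 9 genes past the study's threshold was 0 of 12 in each contrast and stayed 0 in most alternatives. With the scanner's processed signal it was 1 in MS2 against Con (Aldh1a3). Within slide 1 it was 3 in MS5 against Con (Crabp1 and Rarb) and 4 in MS5 against MS2 (Aldh1a2, Crabp1 and Rarb). Without the 3 arrays that stood apart it was 3 in MS5 against MS2 (Crabp1 and Rarb, the latter at 1.48 with an unadjusted limma p of 0.0276). Leaving out each array in turn, it ranged from 0 to 1 in MS5 against MS2, the 1 being Rarb at 1.19 without MS2 replicate 5. No adjusted limma p was under 0.05 for any of these. Slide 1 held neither Con 19 nor MS2 5, which read highest in their groups at Rarb probe 1 (12.44 and 12.33). MS5 9, left out with MS2 4 and MS2 5, read lowest in MS5 at that probe (10.10). The cause of these moves in the count was not tested. Among all probes the count called was 13 in MS2 against Con, 127 in MS5 against Con and 72 in MS5 against MS2, and over the alternatives it ran from 7 to 522, 61 to 623 and 15 to 592, highest with the processed signal. No single-gene value reversed past the threshold.

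No paired analysis was possible because the Con, MS2 and MS5 arrays share no replicate numbers. A within-slide fit rests on 2 or 3 arrays a group, and with 5 arrays a group the intervals of Rarb probe 1 and Crabp1 span changes from below 1 to above 2-fold.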
